A study of Mus musculus with 6 samples.

Results

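Antibody transcripts were examined in RNA-seq libraries of cardiac macrophages taken from infarcted mouse hearts with or without myeloid integrin α5. The genes are the immunoglobulin gene segments: the rows of the deposited count table annotated as functional constant, variable, joining or diversity segments, chosen by a summed count of at least 10 over the 6 libraries. Of 268 such rows 185 met this rule, out of 54532 genes listed: 11 constant, 165 variable and 9 joining segments. The rule used the sum over all libraries and not the difference between the groups. Just inside it stood Igkv11-125 with 10 counts and Igkv4-90 with 12, and just outside it Ighv1-71, Ighv2-4, Ighv8-6 and Igkv8-34 with 9 counts each. No diversity segment reached it: 14 of 19 had 0 counts and the other 5 had fewer than 10. Of the constant genes, Ighe had 0 counts in the 6 libraries and Iglc4 fell below the rule.

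All mice were 12-week-old C57BL/6 animals with both copies of Itga5 flanked by recombination sites, and their hearts were examined 7 days after permanent coronary occlusion. The 3 ITGA5 fl/fl libraries came from animals without Cre. The 3 Myα5KO libraries came from animals that also carry Cre recombinase in the lysozyme M locus, which directs the deletion to myeloid cells, so that lymphocytes are not its target. Cells were depleted of Ly6G+ cells and enriched for CD11b+ cells on magnetic columns, a selection meant to leave out cells without CD11b. Carry-over of such cells, B cells among them, was not tested. The labels do not say whether the libraries of a group came from separate hearts. The methods of the study describe cells isolated from individual mice, without tying each library to a heart. The p-values therefore measure the spread between these libraries.

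Total counts lay between 15424451 and 18419287 per library. Itga5 fell to 8.02% of its control level in Myα5KO (log2 fold change -3.64, edgeR adjusted p 4.42e-12), and Lyz2, which carries the Cre, fell by 0.92 on the log2 scale (edgeR adjusted p 4.27e-05). The macrophage label was met by its markers: Csf1r had between 34331 and 42339 counts and C1qa between 37288 and 52144 in every library. The 12 macrophage markers summed to 25509 to 26137 CPM (counts set to a common library size with TMM factors) in ITGA5 fl/fl and 20243 to 20689 CPM in Myα5KO. Lyz2 (7315 to 3874 CPM) and Cd14 (4755 to 3489 CPM) were the markers of this list that were called lower. Fcgr1 was called higher, and the other 9 were not called (all tested genes: 5.19% lower and 3.56% higher). Of the 12 log2 fold changes 11 were negative, beside 6854 of 14522 over all tested genes. The 10 neutrophil markers summed to 177.8 to 226.9 and 251 to 376 CPM, with 7 of 8 tested genes higher in Myα5KO (higher among all tested genes: 3.56%). The sum of T-cell markers overlapped between the groups (117 to 138 and 116 to 130 CPM). Most of that sum was Il7r (86.2 and 76.1 CPM). Cd2 was higher in Myα5KO (log2 fold change 0.68, edgeR adjusted p 0.0429), and the 226 T-cell receptor rows summed to 6.10, 5.87 and 5.18 CPM against 6.92, 6.69 and 7.41 CPM, without overlap. Their part in the results on B-cell genes was not tested.

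An antibody is a pair of heavy chains and a pair of light chains, and a B cell builds each variable domain by joining a variable segment to a joining segment, with a diversity segment between them in the heavy chain. Each B cell and its progeny carry in this way a single rearranged heavy chain and usually a single light chain, of the kappa or lambda type, so the variable segments in a tissue reflect which B cells it holds. The constant gene sets the class: Ighm and Ighd are read in B cells that have not switched class, and Ighg, Igha and Ighe after switching. Plasma cells make far more of this RNA than resting B cells. B-1 cells, innate-like B cells abundant in the body cavities, can carry CD11b on their surface, and their classical antibodies against phosphatidylcholine pair Ighv11-2 with Igkv14-126 or Ighv12-3 with Igkv4-91. Macrophages do not rearrange these loci.

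The segments on which the results turn are shown first. Sequences are those of GENCODE M21 on GRCm38, in which all 185 members have the coordinates of the deposited table. For 6 variable segments the last 150 bases of the germline exon are given, 5′ to 3′ on the coding strand, and the capitals mark the codons that end in the conserved cysteine before the junction. The first 4 form the pairs of B-1 cells (chr12:114048241-114048390 minus, chr6:67896493-67896642 plus, chr12:114366521-114366670 minus and chr6:68768555-68768704 minus).
Ighv11-2: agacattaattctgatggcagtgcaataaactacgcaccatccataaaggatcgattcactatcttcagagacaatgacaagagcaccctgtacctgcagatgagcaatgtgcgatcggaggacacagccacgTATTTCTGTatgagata
Igkv14-126: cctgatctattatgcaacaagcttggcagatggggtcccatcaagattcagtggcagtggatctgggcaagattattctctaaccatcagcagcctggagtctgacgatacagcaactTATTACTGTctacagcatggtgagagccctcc
Ighv12-3: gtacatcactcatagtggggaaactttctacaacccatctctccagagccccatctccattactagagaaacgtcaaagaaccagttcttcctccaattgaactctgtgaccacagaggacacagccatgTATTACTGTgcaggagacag
Igkv4-91: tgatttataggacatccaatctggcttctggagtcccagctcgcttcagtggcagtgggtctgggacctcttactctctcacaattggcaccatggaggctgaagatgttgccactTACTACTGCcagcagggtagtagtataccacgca

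The next 2 are the variable segments of largest decrease and, among heavy and kappa segments called higher, of the highest count (chr12:114708648-114708797 minus and chr6:68425923-68426072 plus).
Ighv1-19: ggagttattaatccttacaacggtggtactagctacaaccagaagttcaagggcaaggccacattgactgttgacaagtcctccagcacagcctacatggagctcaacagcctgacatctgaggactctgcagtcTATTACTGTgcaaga
Igkv16-104: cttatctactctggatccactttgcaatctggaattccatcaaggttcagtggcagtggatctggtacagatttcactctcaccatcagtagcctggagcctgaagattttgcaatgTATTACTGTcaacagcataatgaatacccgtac
For the heavy joining segments the coding exon is printed, to show how short they are beside a read of 150 bases (chr12:113429781-113429833, chr12:113429468-113429515, chr12:113429085-113429132 and chr12:113428514-113428567, all minus). The Ighj2 gene of the deposited table spans 100 bases, from 113429468 to 113429567, of which the coding exon is the part shown. Capitals mark the codons of the tryptophan-glycine motif at the start of the fourth framework.
Ighj1: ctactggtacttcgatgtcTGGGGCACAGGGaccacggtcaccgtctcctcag
Ighj2: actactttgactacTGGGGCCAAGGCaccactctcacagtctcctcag
Ighj3: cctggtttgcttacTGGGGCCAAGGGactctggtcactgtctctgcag
Ighj4: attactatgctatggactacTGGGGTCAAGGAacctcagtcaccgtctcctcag

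Variable segments resemble each other, which limits how surely a read is assigned. Of 165 variable members, 139 shared at least 1 word of 50 bases with another gene, with a median of 24.3% of their words, and 14 shared a word of 150 bases, the read length. Igkv14-126, Ighv12-3, Igkv16-104, Ighm, Igha, Ighd and Iglc1 shared none of 50 bases. Ighv11-2 shared 38.6% of its words, Ighv1-19 22.2%, and Igkv1-110 and Igkv1-117 50.9% and 49.9%, mostly with each other.

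Immunoglobulin transcripts were present in every library and made up about 0.1% of its counts. The members held 13025, 18168 and 15962 counts in ITGA5 fl/fl against 27875, 16136 and 18008 in Myα5KO. Myα5KO replicate 1 stood above the other 5 libraries, which overlapped. Their share of the library was 0.0922 ± 0.0106% in ITGA5 fl/fl and 0.113 ± 0.0350% in Myα5KO (SD, n = 3 each), a difference within the spread of the Myα5KO libraries. Without Myα5KO replicate 1 that mean was 0.0928%. In Myα5KO replicate 1 alone the share was 0.153% (95% Wilson interval 0.151 to 0.155%, which covers counting error only). In bulk RNA, fewer cells of a type and less RNA per cell cannot be told apart.

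**Figure D1:**
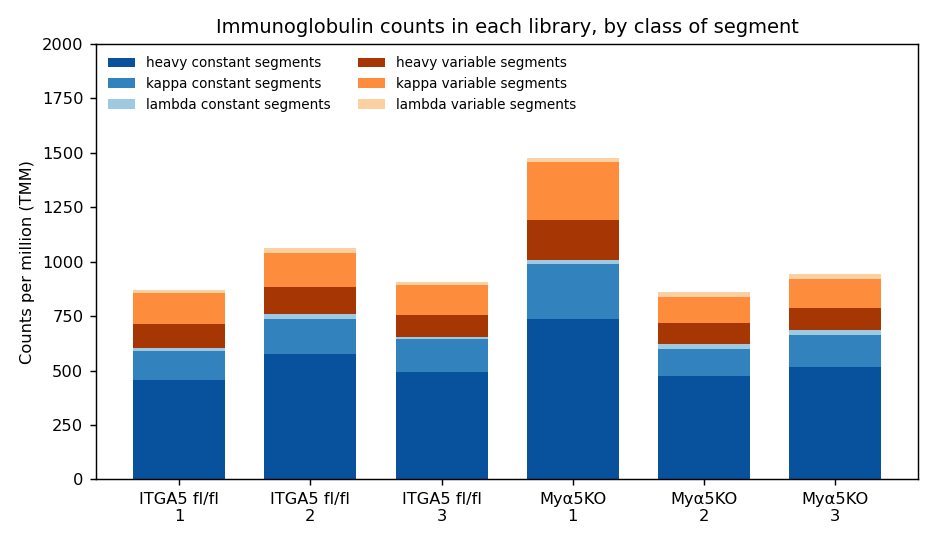
Stacked bars give the CPM of constant (blue) and variable (orange) segments of the heavy, kappa and lambda chains in each of the 6 libraries; joining segments, at 5.80 CPM or less per library, are left out. Myα5KO replicate 1 reached 1484 CPM over all members, and the other 5 libraries lay between 863 and 1067 CPM.

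The split by class was alike in the libraries. Constant segments held 11153 ± 2007 counts in ITGA5 fl/fl against 14528 ± 3878 in Myα5KO, variable segments 4515 ± 580 and 6066 ± 2409, and joining segments 49.7 ± 12.1 and 78.7 ± 29.1 (SD, n = 3 each). Heavy chain members summed to 621 ± 68.9 and 706 ± 191 CPM, kappa members to 298 ± 21.7 and 349 ± 149 CPM, and lambda members to 30.4 ± 14.2 and 44.0 ± 2.76 CPM. The CPM sums of every class and chain overlapped between the groups.

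Igkc and Ighm dominated the constant genes (plot of constant region genes). Per length, Igkc, the kappa constant gene, had 249, 302 and 284 FPKM in ITGA5 fl/fl against 469, 230 and 272 FPKM in Myα5KO. Ighm, the μ chain of IgM, had 213, 258 and 228 FPKM in ITGA5 fl/fl against 338, 216 and 217 FPKM in Myα5KO. In both genes Myα5KO replicate 1 was the highest library and the other 5 overlapped. The log2 fold change, Myα5KO over ITGA5 fl/fl, was 0.15 for Ighm (SE 0.14, edgeR adjusted p 0.583) and 0.22 for Igkc (SE 0.19, edgeR adjusted p 0.525). Without Myα5KO replicate 1 both turned negative (-0.10 and -0.15). Each of the other 9 constant genes stayed at or below 30.9 FPKM.

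**Figure D2:**
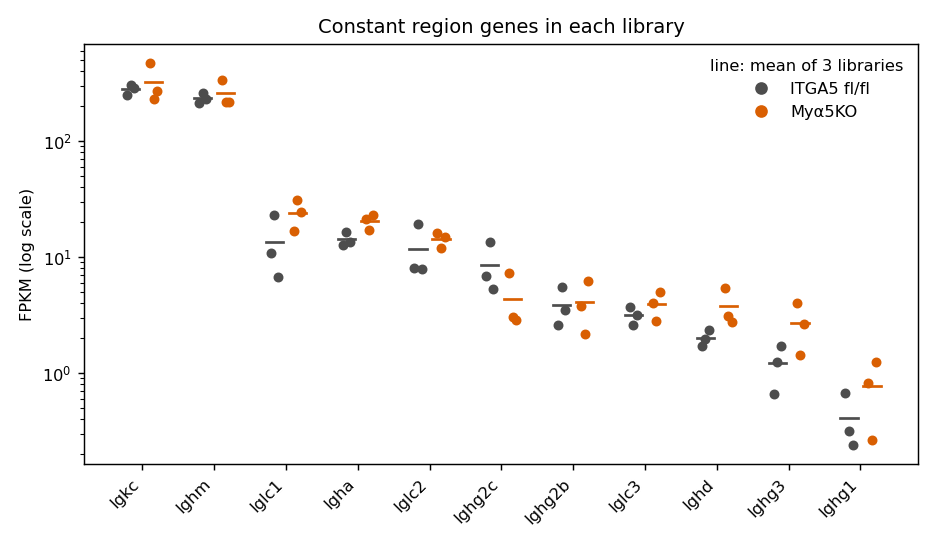
Points give FPKM on a log axis for the 11 constant region genes in 3 ITGA5 fl/fl (grey) and 3 Myα5KO (orange) libraries, and lines the mean of 3 libraries. Igkc and Ighm lie above 200 FPKM in every library, and for Igha and Ighd every Myα5KO library lies above every ITGA5 fl/fl library.

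Igha and Ighd were the constant genes that rose. Igha, the α chain of IgA (chromosome 12, 113254830 to 113260236, minus strand), had 504, 757 and 631 counts in ITGA5 fl/fl against 1065, 858 and 1195 in Myα5KO. Every Myα5KO library was above every ITGA5 fl/fl library, and the mean rose from 38.1 ± 5.65 to 55.1 ± 8.57 CPM (log2 fold change 0.53, SE 0.12, edgeR adjusted p 0.0132). Ighd, the δ chain of IgD found on mature naive B cells (chromosome 12, 113406604 to 113416324, minus strand), had 49, 64 and 78 counts in ITGA5 fl/fl against 195, 111 and 102 in Myα5KO. It rose from 3.83 ± 0.580 to 7.23 ± 2.75 CPM (log2 fold change 0.91, SE 0.24, edgeR adjusted p 0.0303), again without overlap. When each library was omitted in turn, Igha ranged from 0.43 to 0.66 on the log2 scale and lost its call without ITGA5 fl/fl replicate 3, while Ighd ranged from 0.55 to 1.09 and kept its call only without Myα5KO replicate 2 or 3.

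The IgG genes, read after class switching, were scarce and differed between single libraries. Ighg2c had 136, 307 and 123 counts in ITGA5 fl/fl against 181, 76 and 73 in Myα5KO, and was the 1 constant gene with a negative log2 fold change (-0.96, SE 0.35, edgeR adjusted p 0.113). Ighg3 had 25, 54 and 76 counts against 191, 68 and 130 (log2 fold change 1.15, SE 0.34, edgeR adjusted p 0.0531). Ighg2b had 104, 252 and 165 counts against 192, 109 and 322, and Ighg1 had 26, 14 and 11 against 40, 13 and 62. None of the 4 passed the test, and their groups overlapped. Without Myα5KO replicate 1 Ighg2c was called lower (-1.53, edgeR adjusted p 0.00904), and without Myα5KO replicate 2 Ighg3 was called higher (1.45, edgeR adjusted p 0.00778), as it also was with library-size scaling and with a summed count of 10 or more. Ighg2b turned negative without ITGA5 fl/fl replicate 1 (-0.14) or Myα5KO replicate 3 (-0.38).

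Among heavy constant counts, Ighm took 87.7, 85.2 and 87.5% in ITGA5 fl/fl against 86.6, 86.1 and 80.8% in Myα5KO. Switched classes, IgG and IgA together, took 11.6, 14.1 and 11.6% in ITGA5 fl/fl against 12.0, 12.7 and 18.2% in Myα5KO. The libraries of the groups overlapped for both shares, and Myα5KO replicate 3 had the lowest Ighm share and the highest switched share. IgA alone took 7.45 ± 0.229% in ITGA5 fl/fl and 9.84 ± 2.25% in Myα5KO (SD, n = 3 each). By library the IgA share was 7.36, 7.72 and 7.29% against 7.68, 9.66 and 12.2%, so the groups overlapped. Ighd took 0.756 ± 0.129% and 1.23 ± 0.184%. IgG together took 4.99 ± 1.21% and 4.44 ± 1.49%.

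Most light chain reads were kappa. Lambda genes held 8.03, 12.7 and 5.80% of light constant counts in ITGA5 fl/fl against 7.15, 15.6 and 13.4% in Myα5KO, and the groups overlapped. Iglc1 had 74, 180 and 54 counts in ITGA5 fl/fl against 143, 263 and 214 in Myα5KO (log2 fold change 0.82, SE 0.32, edgeR adjusted p 0.144). Iglc2 had 74, 202 and 85 counts against 185, 138 and 176 (0.28, SE 0.27, edgeR adjusted p 0.579), and Iglc3 had 25, 20 and 25 against 34, 24 and 44 (0.35, SE 0.29, edgeR adjusted p 0.524). Iglc1 (1.46) and Iglc2 (0.85) were called higher once ITGA5 fl/fl replicate 2 was omitted. Iglv1, the most used lambda variable segment (chromosome 16, 19085017 to 19085500, minus strand), had 124, 223 and 111 counts in ITGA5 fl/fl against 249, 348 and 288 in Myα5KO, without overlap. It rose from 9.24 ± 3.49 to 15.7 ± 2.72 CPM (log2 fold change 0.76, SE 0.21, edgeR adjusted p 0.0363), a value between 0.54 and 1.11 when each library was omitted in turn, and was called only without ITGA5 fl/fl replicate 2 or Myα5KO replicate 1. The share of Iglv1 among lambda variable counts was 60.5, 57.3 and 62.4% in ITGA5 fl/fl against 61.6, 80.9 and 67.3% in Myα5KO.

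Joining segments, which are shorter than a read, held few counts. Ighj4 led the heavy set with 12, 12 and 11 counts in ITGA5 fl/fl against 25, 20 and 19 in Myα5KO, without overlap (log2 fold change 0.67, SE 0.33, edgeR adjusted p 0.243). Ighj1 followed with 8, 13 and 5 counts against 24, 10 and 16 (0.74, SE 0.45, edgeR adjusted p 0.357). Ighj2 (2, 13 and 3 against 13, 3 and 2) and Ighj3 (2, 7 and 11 against 6, 5 and 6) were too low to test. The 5 kappa joining segments held 19 to 35 counts each over the 6 libraries, and none was tested. Igkj1 had 0, 1 and 2 counts in ITGA5 fl/fl against 8, 3 and 5 in Myα5KO, and Igkj5 had 6, 5 and 7 against 4, 4 and 9. Igkj2, Igkj3 and Igkj4 overlapped between the groups, with 0 to 12 counts per library.

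Variable segments were broad in range: 156 to 161 of the 165 members had a count in each library, 82 of the members were heavy, 80 kappa and 3 lambda, and their summed counts ran from 10 to 2203. At an equal number of 3989 counts, 156 ± 1.44 segments were detected in ITGA5 fl/fl and 156 ± 0.941 in Myα5KO (SD, n = 3 each). By chain the values went opposite ways: 80, 79.5 and 79.7 heavy segments in ITGA5 fl/fl against 77.2, 76.4 and 78.6 in Myα5KO at an equal number of counts, without overlap, and 73, 75.8 and 72.7 kappa segments against 76.01, 75.9 and 75.7, with overlap. Family Ighv1, the largest, took 49.6 ± 7.03% of heavy variable counts in ITGA5 fl/fl against 42.2 ± 4.56% in Myα5KO, from 41 members. In the kappa chain Igkv4 took 16.3 ± 3.22% and 19.9 ± 2.48%, Igkv1 15.40 ± 4.05% and 21.02 ± 4.395%, and Igkv14, with 3 members, 13.4, 10.2 and 37.2% against 12.3, 10.2 and 7.52% by library.

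Dominance by single segments differed from library to library, and its values overlapped between the groups. ITGA5 fl/fl replicate 3 was the most concentrated: Igkv14-126 took 36.4% of its kappa variable counts (906 of 2487, 95% Wilson interval 34.6 to 38.3%) and Ighv1-19 took 27.2% of its heavy variable counts (478 of 1755, 25.2 to 29.4%). In the other 5 libraries the leading kappa segment took 8.55 to 13.03% and the leading heavy segment 6.92 to 13.3%. The leading heavy segments were Ighv12-3, Ighv1-9 and Ighv1-19 in the 3 ITGA5 fl/fl libraries and Ighv12-3, Ighv1-55 and Ighv7-3 in the 3 Myα5KO libraries. The leading kappa segment was Igkv14-126 in all 3 ITGA5 fl/fl libraries and Igkv4-91, Igkv15-103 and Igkv1-110 in the Myα5KO libraries. Some leads were narrow. Igkv14-126 led Igkv1-117 by 231 to 226 counts in ITGA5 fl/fl replicate 2, and Igkv15-103 led it by 194 to 192 in Myα5KO replicate 2. In ITGA5 fl/fl replicate 1, Ighv12-3 had 112 counts and Ighv1-55 had 111. Each leading segment kept its place when FPKM replaced counts. Such a share counts the reads of a germline segment and not a clone, since the files hold neither junctions nor chain pairs, and several B-cell clones can use the same segment.

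**Figure D3:**
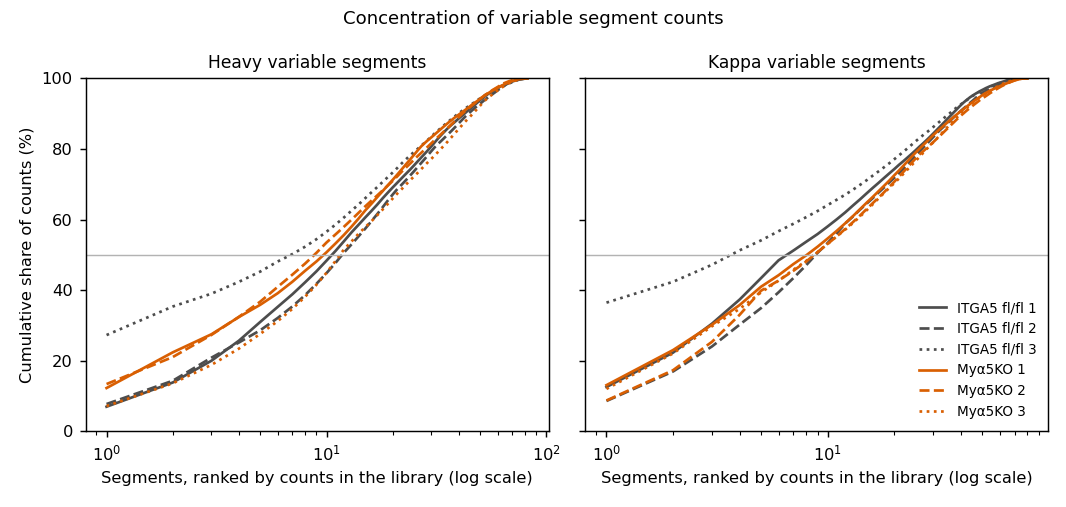
Curves give the cumulative share of heavy (left) and kappa (right) variable counts, with segments ranked by counts within each library on a log axis, for ITGA5 fl/fl (grey) and Myα5KO (orange) replicates 1 to 3; the thin line marks 50%. ITGA5 fl/fl replicate 3 starts at 27.2% and 36.4% and reaches 50% with 7 heavy and 4 kappa segments, and the other libraries need 9 to 12 heavy and 7 to 9 kappa segments.

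The inverse Simpson number, the count of equally used segments that would give the same concentration, was 46.9, 54.8 and 16.3 over all variable segments in ITGA5 fl/fl against 44.4, 42.5 and 48.2 in Myα5KO. ITGA5 fl/fl replicate 3 was the lowest and its 2 group mates were above or within the Myα5KO values, so the groups overlapped. By chain, the heavy values were 30.8, 32.6 and 10.9 in ITGA5 fl/fl against 23.5, 23.2 and 34.0 in Myα5KO. The kappa values were 20.1, 26.1 and 6.84 in ITGA5 fl/fl against 21.3, 24.4 and 22.6 in Myα5KO. Group means were 39.3 ± 20.4 and 45.04 ± 2.88 over all variable segments (SD, n = 3 each). Without ITGA5 fl/fl replicate 3 the first mean was 50.8.

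Segments known from B-1 cells were among the most used in both groups. Ighv11-2 ranked within the first 4 heavy segments of every library, with 92, 134 and 142 counts in ITGA5 fl/fl against 347, 139 and 122 in Myα5KO. Its share of heavy variable counts was 6.78 ± 1.22% and 8.08 ± 1.86% (SD, n = 3 each), and its log2 fold change was 0.54 (SE 0.31, edgeR adjusted p 0.322), which turned to -0.10 without Myα5KO replicate 1. Its partner Igkv14-126 had 271, 231 and 906 counts in ITGA5 fl/fl against 498, 171 and 126 in Myα5KO (log2 fold change -0.99, SE 0.48, edgeR adjusted p 0.236). Without Myα5KO replicate 1 Igkv14-126 was called lower (-1.83, edgeR adjusted p 0.0174), and without ITGA5 fl/fl replicate 3 the value was -0.17. ITGA5 fl/fl replicate 3, in which Igkv14-126 peaked, had an Ighv11-2 share of 8.09%, and Myα5KO replicate 1 had the highest, 10.1%.

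The second pair peaked in a single library together. Ighv12-3 had 112, 71 and 50 counts in ITGA5 fl/fl against 419, 93 and 99 in Myα5KO (log2 fold change 1.18, SE 0.50, edgeR adjusted p 0.171). Igkv4-91 had 178, 127 and 102 counts in ITGA5 fl/fl against 652, 153 and 198 in Myα5KO (log2 fold change 1.09, SE 0.43, edgeR adjusted p 0.143). Both were highest in Myα5KO replicate 1, where they took 12.2% of heavy and 13.03% of kappa variable counts, and the other Myα5KO libraries lay within the CPM range of ITGA5 fl/fl for both. Without Myα5KO replicate 1 the log2 fold changes were 0.09 and 0.16, and without Myα5KO replicate 2 Igkv4-91 was called higher (1.44).

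**Figure D4:**
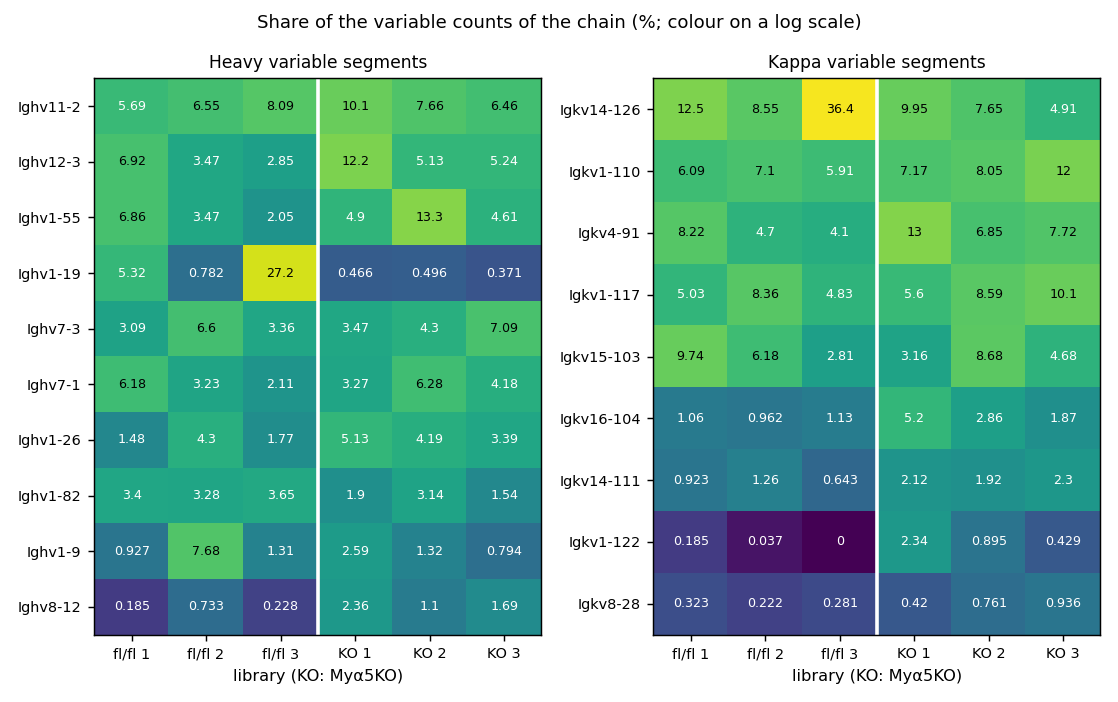
Cells give the percent of heavy (left) or kappa (right) variable counts of a library taken by a segment, for segments among the first 3 of any library or called between the groups; colour follows the log of the share, and columns are 3 ITGA5 fl/fl and 3 Myα5KO libraries. The brightest cells are single libraries: Ighv1-19 (27.2%) and Igkv14-126 (36.4%) in ITGA5 fl/fl replicate 3.

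Other leading segments changed places between libraries. Ighv1-55 had 111, 71 and 36 counts in ITGA5 fl/fl against 168, 242 and 87 in Myα5KO (log2 fold change 0.98, SE 0.38, edgeR adjusted p 0.137). Ighv1-9 had 15, 157 and 23 counts against 89, 24 and 15 (-0.78, SE 0.71, edgeR adjusted p 0.56), with the peak in ITGA5 fl/fl replicate 2. Ighv7-3 had 50, 135 and 59 against 119, 78 and 134, Ighv7-1 had 100, 66 and 37 against 112, 114 and 79, and Ighv1-26 had 24, 88 and 31 against 176, 76 and 64. Ighv1-82 had 55, 67 and 64 counts against 65, 57 and 29. In the kappa chain Igkv1-110 had 132, 192 and 147 counts against 359, 180 and 307 (0.65, SE 0.20, edgeR adjusted p 0.0643), Igkv1-117 had 109, 226 and 120 against 280, 192 and 258 (0.50, SE 0.21, edgeR adjusted p 0.183), and Igkv15-103 had 211, 167 and 70 against 158, 194 and 120 (-0.14, SE 0.31, edgeR adjusted p 0.834). Igkv1-110 and Igkv1-117 share many words, so their separate counts are uncertain. None of these 9 segments passed the test with all libraries. Ighv1-9 turned positive (0.96) without ITGA5 fl/fl replicate 2, and Igkv15-103 without ITGA5 fl/fl replicate 1 (0.28) or Myα5KO replicate 3 (0.03). Single libraries also decided calls: Ighv1-26 (1.72) and Igkv1-117 (0.87) were called higher without ITGA5 fl/fl replicate 2, Igkv1-110 (0.89) without Myα5KO replicate 2, and Ighv1-55 without ITGA5 fl/fl replicate 1 (1.505) or Myα5KO replicate 3 (1.29).

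A concentration in 1 library was rare among tested genes outside these loci. Of 74 variable members with at least 100 counts in all, 9 had 50% or more of their summed CPM in a single library, against 2 of 13143 other tested genes with as many counts and 0 of 11 constant members. The other genes had passed the count filter of the test, which drops genes whose counts sit in 1 library. The variable members were not held to it, so the sets are not alike and no conclusion is drawn from the difference. The median share of the highest library was 28.5%, 19.1% and 26.4%. In the bin of 200 to 500 counts the medians were 28.8% for 31 variable members and 21.1% for 1800 other genes. The 9 were Ighv1-19 in ITGA5 fl/fl replicate 3, Ighv1-9 in ITGA5 fl/fl replicate 2, Igkv10-95 in Myα5KO replicate 3 (85 counts, against 1 to 10 elsewhere) and, all in Myα5KO replicate 1, Igkv1-122, Igkv3-5, Igkv3-4, Igkv16-104, Ighv1-76 and Ighv8-12. Igkv3-5 and Igkv3-4 had 122 and 101 counts there and at most 20 and 19 in any other library.

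Ranked usage correlated within and between the groups, in ranges that overlapped. Across 82 heavy segments the Spearman correlation of shares was 0.65 to 0.87 for pairs of libraries of the same group and 0.62 to 0.83 for pairs from different groups. Across 80 kappa segments it was 0.73 to 0.85 and 0.69 to 0.79. Ranks take little account of dominance. Usage in common, the sum over segments of the lower share of a pair, was 62.0 to 77.4% and 58.9 to 75.3% for heavy segments. For kappa segments it was 62.3 to 79.5% and 58.4 to 79.1%, again for the same and different groups. The libraries share the annotation, segment lengths and germline usage, so these are descriptions across segments.

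Fold changes between the groups could be tested for 117 of the 185 members, all 11 constant genes, 2 joining and 104 variable segments; the other 68 were too low. Of the 117, 8 were higher and 1 was lower in Myα5KO with an adjusted p (edgeR) of at most 0.05. This is 7.69% of tested members, beside 8.75% of all 14522 tested genes (3.56% higher and 5.19% lower), a share near the background. The median log2 fold change was 0.24 over the tested members and 0.01 over all tested genes, and 78 of 117 were positive, beside 7668 of 14522. Members pass the test's filter through the group in which they are higher, so these figures cover the tested members only. Without Myα5KO replicate 1 the median over tested members was -0.07 and 4 were called higher and 3 lower, and without ITGA5 fl/fl replicate 3 the calls were 0 higher and 2 lower. The groups did not overlap for 17 members higher and 4 lower in Myα5KO, or 17.9% of those tested, beside 28.6% of all tested genes (14.9% higher and 13.8% lower).

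Beyond Igha, Ighd and Iglv1, 6 variable segments passed the test. Igkv16-104 (chromosome 6, 68425575 to 68426072, plus strand) had 23, 26 and 28 counts in ITGA5 fl/fl against 260, 64 and 48 in Myα5KO (log2 fold change 2.08, SE 0.54, edgeR adjusted p 0.029). Igkv1-122 (chromosome 6, 68016718 to 68017488, plus strand) had 4, 1 and 0 counts against 117, 20 and 11 (4.60, SE 1.05, edgeR adjusted p 0.0164), a fold that rests on 5 control counts. Ighv8-12 had 3, 15 and 4 counts against 81, 20 and 32 (2.39, SE 0.59, edgeR adjusted p 0.0233). Igkv14-111 had 20, 34 and 16 counts against 106, 43 and 59 (1.38, SE 0.35, edgeR adjusted p 0.0283). In these 4 every Myα5KO library was above every ITGA5 fl/fl library and Myα5KO replicate 1 was the highest. Without it their log2 fold changes were 0.93, 2.93, 1.62 and 0.93, and only those of Igkv16-104 and Igkv1-122 were called. Without ITGA5 fl/fl replicate 3 none of the 4 was called, at log2 fold changes of 2.10, 4.001, 2.06 and 1.13 in that order (Igkv16-104, Igkv1-122, Ighv8-12 and Igkv14-111). Igkv16-104 also lost its call without either other ITGA5 fl/fl library, Igkv1-122 without replicate 2 and Ighv8-12 and Igkv14-111 without replicate 1 of that group.

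Igkv8-28 was the most even of the called segments, with 7, 6 and 7 counts in ITGA5 fl/fl against 21, 17 and 24 in Myα5KO (log2 fold change 1.42, SE 0.37, edgeR adjusted p 0.0304). At these counts it lost its call whichever library was omitted, with log2 fold changes from 1.31 to 1.54. Ighv1-19 was the 1 member that fell, with 86, 16 and 478 counts in ITGA5 fl/fl against 16, 9 and 7 in Myα5KO (log2 fold change -4.32, SE 0.93, edgeR adjusted p 0.0118). Its control libraries differ among themselves by more than the lowest of them differs from Myα5KO. Without ITGA5 fl/fl replicate 3 its log2 fold change was -2.53 and it was still called, whereas limma-voom and edgeR's robust fit did not call it.

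**Figure D5:**
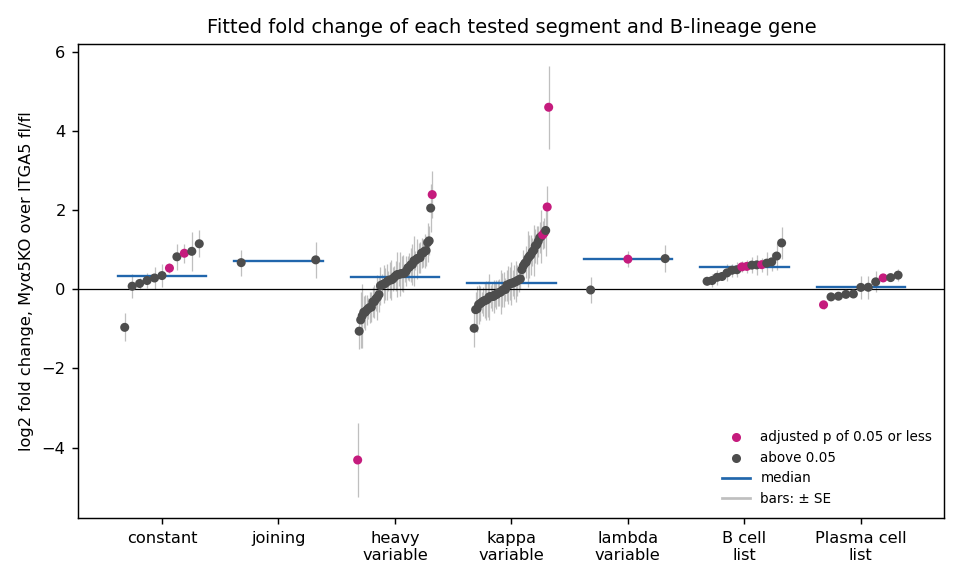
Points give the fitted log2 fold change, Myα5KO over ITGA5 fl/fl, of each tested segment and of tested genes of the B cell and plasma cell lists, with bars for ± SE and a blue line for the median; magenta points have an adjusted p of 0.05 or less. All 16 B cell genes lie above 0, and the variable segments spread from -4.32 to 4.60.

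To set the segments beside the cells that make them, B-lineage genes were examined by list. All 16 B cell markers were tested, all had a positive log2 fold change with a median of 0.57, and 3 were higher in Myα5KO (higher among all genes: 3.56%). Among them, Cd79b, a signalling chain of the B-cell receptor, had 196, 271 and 352 against 503, 382 and 489 (0.57, SE 0.14, edgeR adjusted p 0.0258). Spib, a transcription factor of B cells, had 186, 278 and 268 against 541, 333 and 367 (0.58, SE 0.16, edgeR adjusted p 0.0426). Ms4a1, which encodes CD20, had 190, 325 and 341 counts against 676, 376 and 426 and Pax5 had 114, 207 and 209 against 459, 229 and 281, neither of them called (edgeR adjusted p 0.0744 and 0.0759). Myα5KO replicate 1 was the highest library for each of these 4 genes, as it was for Ighm and Igkc. Without it 0 of the 16 were called higher, and without ITGA5 fl/fl replicate 1 or 2 likewise 0.

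Cd72, which macrophages also express, held most counts of that list. The other 15 B cell genes summed to 165, 208 and 230 CPM in ITGA5 fl/fl against 356, 229 and 260 CPM in Myα5KO, which overlapped. Divided by the counts of these 15 genes, the immunoglobulin members came to 5.29, 5.14 and 3.95 counts per count in ITGA5 fl/fl against 4.17, 3.78 and 3.64 in Myα5KO. On this scale Myα5KO replicate 1 was no longer apart from the other libraries, and the groups overlapped. Constant segments came to 3.65, 3.67 and 2.84 in ITGA5 fl/fl against 2.83, 2.72 and 2.64 in Myα5KO, without overlap but by a narrow margin. Variable segments came to 1.62, 1.45 and 1.09 against 1.32, 1.05 and 0.987, with overlap. The ratio of Ighm was 2.44, 2.37 and 1.88 in ITGA5 fl/fl against 1.79, 1.79 and 1.60 in Myα5KO, and that of Igha was 0.205, 0.214 and 0.156 against 0.159, 0.201 and 0.242. For Ighm all 3 Myα5KO values were the lower ones, by a narrow margin, and for Igha the groups overlapped.

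Plasma cell genes went both ways, with 1 of 11 tested genes higher, 1 lower and a median log2 fold change of 0.05. Over all tested genes 3.56% were higher and 5.19% lower, the background for this and the following lists, whose counts of called genes are small. Jchain, which links chains of IgM and IgA into polymers, had 507, 673 and 551 counts in ITGA5 fl/fl against 1098, 680 and 749 in Myα5KO (0.36, SE 0.15, edgeR adjusted p 0.164), with the peak again in Myα5KO replicate 1. Mzb1, a chaperone of antibody secretion, had 61, 125 and 111 counts against 184, 77 and 122 (0.19, SE 0.27, edgeR adjusted p 0.73). Prdm1, the regulator of plasma cell differentiation that macrophages also express, was lower (-0.39, SE 0.11, edgeR adjusted p 0.0383). Tnfrsf13b, a receptor for B-cell survival factors, was higher (0.29, SE 0.08, edgeR adjusted p 0.0388). Tnfrsf17, which marks plasma cells, had 3 to 8 counts per library and was not tested.

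Of 10 genes listed for B-1 and marginal zone B cells, 1 was higher, Rasgrp3 (0.38, SE 0.10, edgeR adjusted p 0.0343), an activator of Ras in B cells, and 0 were lower, with a median of 0.04. Cd5 had 74 to 99 counts per library and Bhlhe41, a transcription factor of B-1a cells, 552 to 718, and neither was called. Among 10 tested genes of germinal centres and class switching, 2 were higher (all tested genes: 3.56%), S1pr2 (0.29) among them, and 1 was lower (all tested genes: 5.19%), the death receptor Fas (-0.51) (edgeR adjusted p 0.0347 and 0.00671). Genes of V(D)J recombination were at or near 0: Rag2, Vpreb2 and Igll1 had 0 counts in all libraries, which allows up to 3 counts per library, and Rag1 had at most 2. Of that list, 2 genes were tested and Cd93, which macrophages express too, was lower (-0.32, edgeR adjusted p 0.0261).

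In B-cell receptor signalling, 5 of 20 genes were higher and 2 lower (all tested genes: 3.56% and 5.19%), with a median log2 fold change of 0.08. Among them, beside Cd79b, were the phosphatase Ptpn6 (0.53) and the kinase subunit Pik3cd (0.38), which rose, and the kinase Syk (-0.44) and the protease Malt1 (-0.36), which fell. Macrophages also use several of them: Syk had 11683 to 15392 counts per library, against 196 to 503 for Cd79b. Of 7 tested ligands and receptors of B-cell survival, Tnfrsf13b was higher and Il6, a cytokine that supports plasma cells, was lower, with 515, 984 and 972 counts in ITGA5 fl/fl against 463, 394 and 583 in Myα5KO (-0.95, SE 0.17, edgeR adjusted p 0.0039). Tnfsf13b, which encodes BAFF, had 72 to 96 counts in ITGA5 fl/fl against 108 to 119 in Myα5KO (0.32, edgeR adjusted p 0.244).

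Receptors through which macrophages bind antibodies were abundant. Of 9 tested, 2 were higher and 0 lower (all tested genes: 3.56% and 5.19%), with a median of 0.05. Fcgr1, the high-affinity receptor for IgG, had 2782, 3366 and 3530 counts in ITGA5 fl/fl against 4413, 4546 and 4303 in Myα5KO (0.27, SE 0.06, edgeR adjusted p 0.0215). Trim21, a cytosolic receptor for antibodies, had 73, 84 and 89 counts against 128, 131 and 164 (0.59, SE 0.15, edgeR adjusted p 0.0247). Both were without overlap. Fcgr2b, Fcgr3 and Fcgr4 had log2 fold changes of -0.13, -0.05 and 0.05 and were not called. With each library omitted in turn, the number called higher ran from 0 to 1 in the B-1 and the germinal centre list, from 2 to 6 in receptor signalling and from 0 to 2 among antibody receptors, and was 0 in every such fit for the plasma cell and survival lists, so Tnfrsf13b kept its call in none. Several of these lists hold genes that macrophages express, and the part of each cell type in these values was not tested.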

How the data were processed

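The data are 6 RNA-seq libraries of Ly6G- CD11b+ cells from infarcted hearts, 3 titled as ITGA5 fl/fl and 3 as Myα5KO. Per the methods and processing notes of the study, the authors aligned paired reads of 150 bases to GRCm38 with TopHat2 2.0.9 and counted reads per gene with HTSeq 0.6.1. The deposited counts are whole numbers without normalization. The FPKM values deposited by the authors are those counts per gene length and scaled library. How strand and multi-mapped reads were handled is not given in the sources used here, so segments with near copies are uncertain.

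Genes were tested with edgeR 4.0.16 (quasi-likelihood, TMM, minimum count 10, minimum total 15; limma 3.58.1, DESeq2 1.42.0 as alternatives; R 4.3.3), two-sided, with Benjamini-Hochberg adjustment over all 14522 genes, and called at an adjusted p of 0.05 or less. SE is the log2 fold change over the square root of the F statistic. Shares, concentration and ratios were computed from counts, with no test, in Python 3.11.15. Wilson intervals (95%) and the limit of 3 counts for a count of 0 cover counting error only, since reads carry no molecular identifiers. Shared words were sought in GENCODE M21 transcripts. On simulated data for 14522 genes, 183 of 200 changed genes were recovered, with 8 false among 191 calls. The simulation gave every gene the same dispersion, so these rates do not extend to segments that vary more between libraries.

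The members and lists were chosen with earlier results of these data known. Named genes are all constant and joining members, the first 3 heavy and kappa and the first lambda variable segments of each library, the called members and the called genes of the B-lineage lists, with Itga5, Lyz2 and leading markers; others, among them Ms4a1, Pax5, Igkv3-4, Igkv3-5, Igkv10-95, Ighv1-76, Mzb1, Cd5, Bhlhe41, Tnfsf13b and Fcgr2b, were named after their values were seen. The ratio to B cell genes was also chosen after seeing the data. No library was left out. Some genes of the lists are counted but not reported here by name.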

Additional observations from a re-analysis of the deposited data

How the results depend on the processing

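The number of members called, 8 higher and 1 lower, moved with the test and with single libraries. The higher count was 5 with limma on log2(FPKM + 1), 4 on log2(FPKM + 0.1), 0 on log2(FPKM + 0.1) without a filter, 13 with library-size scaling, 32 without a count filter, 14 with a summed count of 10 or more and 0 at an adjusted p of 0.01. The lower count was 0 with limma-voom, edgeR's robust fit, each FPKM scale and an adjusted p of 0.01, 10 without a count filter and 3 with a summed count of 10 or more. Without a count filter all 185 members were tested, among them those too low for the main test, so some of those calls rest on low counts. When each library was omitted in turn, the calls ran from 0 to 13 higher and from 1 to 3 lower. Over all genes, 517 higher and 754 lower became 150 and 322 with limma on log2(FPKM + 1), 142 and 306 on log2(FPKM + 0.1), 2 and 23 without a filter and 128 and 342 at an adjusted p of 0.01, and the higher count was 1212 with library-size scaling and 798 without a count filter. With libraries left out, the counts over all genes ran from 187 to 420 higher and from 429 to 671 lower. The 3 higher genes of the B cell list became 1 with limma-voom, 0 on each FPKM scale and at an adjusted p of 0.01, 7 with library-size scaling and 11 without a count filter, and ran from 0 to 7 with libraries left out. The cause of these differences was not tested, except that a stricter threshold calls fewer genes by construction.

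The replicate numbers gave no sign of pairing the samples: deviations from the group means correlated at 0.05, -0.06 and 0.04 for numbers 1 to 3. So few libraries cannot show a weak pairing, so no conclusion is drawn on it. With the replicate block 14 members were higher and 1 of the B cell list. No called member reversed its direction in any of the 19 fits. Of the 9, Igha was called in 15 fits and Igkv16-104 in 10, with the others between.

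The immunoglobulin share was 0.408% in ITGA5 fl/fl and 0.512% in Myα5KO when FPKM replaced counts. The share of the leading variable segment, 10.6% and 7.15% over all variable segments, was 60.1% and 70.0% within the lambda chain, and in Myα5KO 10.9% within the heavy chain, 11.2% within the kappa chain and 8.29% over members with 100 counts or more, where the inverse Simpson number in Myα5KO was 33.9. The Ighm share in ITGA5 fl/fl was 88.6% by FPKM. Leaving out the 4 segments of B-1 cells, chosen after seeing the data, moved neither mean leading share by more than its spread. That spread was wide in ITGA5 fl/fl (SD 8.65%), and replicate 3 of that group changed most. Its leading share fell from 20.5 to 14.8% over all variable segments and from 36.4 to 9.94% in the kappa chain. In the heavy chain it rose from 27.2 to 30.6%. Low counts limit the joining segments and Igkv8-28.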
